A study of Mus musculus with 65 samples.

Results

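Axon guidance ligands and receptors were followed across single cells of the embryonic mouse brain. The members were all genes of the deposited tables whose symbol starts as a semaphorin (Sema), plexin (Plxn), neuropilin (Nrp1, Nrp2), ephrin (Efna, Efnb), Eph receptor (Epha, Ephb), Slit, Robo, netrin (Ntn) or Unc5, or equals Dcc. The rule used symbols alone, but it was chosen with earlier results of these data known. It could reach only genes in the tables, each with reads in at least 6 cells. A gene without a read in a group thus entered through its reads in the other groups, and folds against that group do not allow for this. The rule gave 38 of the 10407 gene rows. In the GENCODE vM21 annotation 71 protein-coding genes bear such a name, and the other 33 were not analysed here. The members were 5 ephrins, 10 semaphorins, Ntn4, Slit1 and Slit2 as 18 ligands, and 7 Eph receptors, 2 neuropilins, 7 plexins, Unc5d, Robo1 and Robo2 as 19 receptors. Unc50, a Golgi protein, matched by name alone and is no guidance receptor.

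The transcripts of 65 single cells from CD1 mice, an outbred strain, were sequenced by Patch-seq, in which a pipette draws out the content of 1 cell. The 20 E12 cells and the 26 E15 cells came from wild-type embryos of embryonic days 12 and 15 and carried FlashTag, a dye put into the ventricle that labels progenitors dividing at its surface. The 19 transplanted cells were E15 progenitors placed in an E12 brain. The study's title asks about the potency of apical progenitors, the cells that line the ventricle and give rise to cortical neurons. The labels call all 65 cells neuronal progenitors and name no animal, litter or host. Each group was therefore treated as a single sample, without p-values or standard errors between groups.

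Ephrins and semaphorins are ligands on or from one cell that steer another. Ephrins sit in the membrane and bind Eph receptor tyrosine kinases on a touching cell, and ephrin-B proteins can also signal into the cell that bears them. Class 3 semaphorins are secreted and act through neuropilins paired with plexin-A proteins, most other semaphorins bind plexins directly, Slits bind Robo receptors, and netrins bind Dcc and Unc5 receptors. In the developing cortex these systems are known from growing axons and migrating neurons, and several, ephrin-B1 among them, also from progenitors at the ventricle.

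All ephrins lay on the same side in transplanted over E15 cells under every setting tried, so their promoters are shown first. The windows are the 250 bases before the start of the gene in RefSeq (GRCm38.p6), written on the gene's strand. Of the 38 members 33 had such a window. The 4 ephrins shown are those with such a window, and Efnb3 had none. Each window shown lay outside the GENCODE bounds of its own gene, and overlap with other genes was not checked. The choice of the ephrins was made after the values were known. Capitals mark TGGGAA (or TTCCCA on the other strand), the core of the site of RBPJ, the DNA-binding partner of Notch.
Efnb1, chrX:99135811-99136060, plus strand: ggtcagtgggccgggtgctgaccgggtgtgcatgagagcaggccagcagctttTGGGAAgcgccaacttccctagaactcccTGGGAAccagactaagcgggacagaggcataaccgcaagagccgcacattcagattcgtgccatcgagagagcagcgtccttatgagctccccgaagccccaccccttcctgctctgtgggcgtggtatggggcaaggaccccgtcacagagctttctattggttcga
Efnb2, chr8:8661243-8661492, minus strand: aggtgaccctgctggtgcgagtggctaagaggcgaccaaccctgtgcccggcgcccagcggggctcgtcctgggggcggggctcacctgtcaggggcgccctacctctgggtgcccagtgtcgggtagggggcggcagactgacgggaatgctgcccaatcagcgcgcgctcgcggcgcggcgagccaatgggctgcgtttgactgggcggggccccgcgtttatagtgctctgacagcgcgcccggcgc
Efna2, chr10:80179232-80179481, plus strand: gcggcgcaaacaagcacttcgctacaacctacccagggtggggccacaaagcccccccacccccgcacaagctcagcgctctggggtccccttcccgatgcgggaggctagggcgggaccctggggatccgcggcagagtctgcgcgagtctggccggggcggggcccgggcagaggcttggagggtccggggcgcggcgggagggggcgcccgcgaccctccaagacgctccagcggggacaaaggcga
Efna4, chr3:89338029-89338278, minus strand: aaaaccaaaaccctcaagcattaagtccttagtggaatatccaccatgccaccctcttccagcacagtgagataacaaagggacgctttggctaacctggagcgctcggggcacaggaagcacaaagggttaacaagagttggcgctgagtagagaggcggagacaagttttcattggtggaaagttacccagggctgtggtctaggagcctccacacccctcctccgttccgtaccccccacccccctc
The Efnb1 window held 2 matches, and the windows of Efnb2, Efna2 and Efna4 held 0. Over all members 8 of 33 windows held at least 1 match (24.2%), against 21.5% of 27025 genes with a window of that length. CAGATG (or CATCTG), an E-box bound by proneural factors, was found in 1 of 33 member windows (3.03%) and in 14.5% of all windows. The median GC content was 66.0% in the members' windows and 52.0% over all genes. These are matches of letters, and no binding was measured.

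Libraries differed widely in depth. Reads per cell ran from 10928 to 1635767 at E12 and from 11449 to 4560871 at E15, with medians of 148824 and 998630. In the transplanted group they ran from 22358 to 3622411, with a median of 166134. In 11 E15 and 5 transplanted libraries, and in 0 E12 libraries, more than 8000 genes had a read. These many-gene libraries stood apart in cell type markers too. All 21 apical progenitor markers had reads in each group, and their sum was 21360 CPM (reads of a gene scaled by the total over the measured genes) in the other E15 libraries against 2315 CPM in the many-gene ones. All 20 neuronal markers had reads as well, with sums of 1598, 6301 and 5951 CPM in E12, E15 and transplanted cells, and 7295 CPM in the many-gene E15 libraries. Sums over 14 microglial markers, all with reads in each group, were 83.2, 3244 and 1148 CPM. Sums over 13 of 14 ventral telencephalon markers were 332.4, 2886 and 2217 CPM, with Gsx2 at 0 in E12 cells. Sums over 4 of 7 erythroid markers were 1340, 1411 and 8185 CPM. Single cells ranged from 0 to 21200 CPM in the microglial sum of transplanted cells and from 2.639 to 9170 CPM in that of E15 cells. The part of these libraries and markers in the members' values was not tested, so ratios between groups are given over all libraries and without the many-gene ones.

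Levels below are the reads of a group added up and scaled to CPM, unless a mean or a single cell is named. Ratios are log2 of CPM plus 1 in both groups, for genes at 5 CPM or more in either group. Bounds in parentheses are exact 95% limits (Poisson for a level, conditional binomial for a ratio, Clopper-Pearson for a share). For a count of 0 these bounds are not used. The limit is then set at 3 counts, 3 reads over the group for a level and 3 of its cells for a share. A fold against such a group is taken against that level. The exact upper limits for 0 are wider, 0.7464 CPM and 16.84% of cells at E12, so such folds are not exact 95% bounds. Bounds and limits cover counting error only, because amplified reads were counted without molecular identifiers, and they do not cover the spread between cells. The share of cells with a read is also given at equal depth, as computed for each cell reduced to 28614 reads (7 shallower cells left out). Levels are not divided by gene length and are not compared between genes. For each of the 38 members at least 1 cell of each group had no read, so the lowest cell was at 0 CPM everywhere, and the ranges of single cells overlapped in all 3 comparisons.

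**Figure D1:**
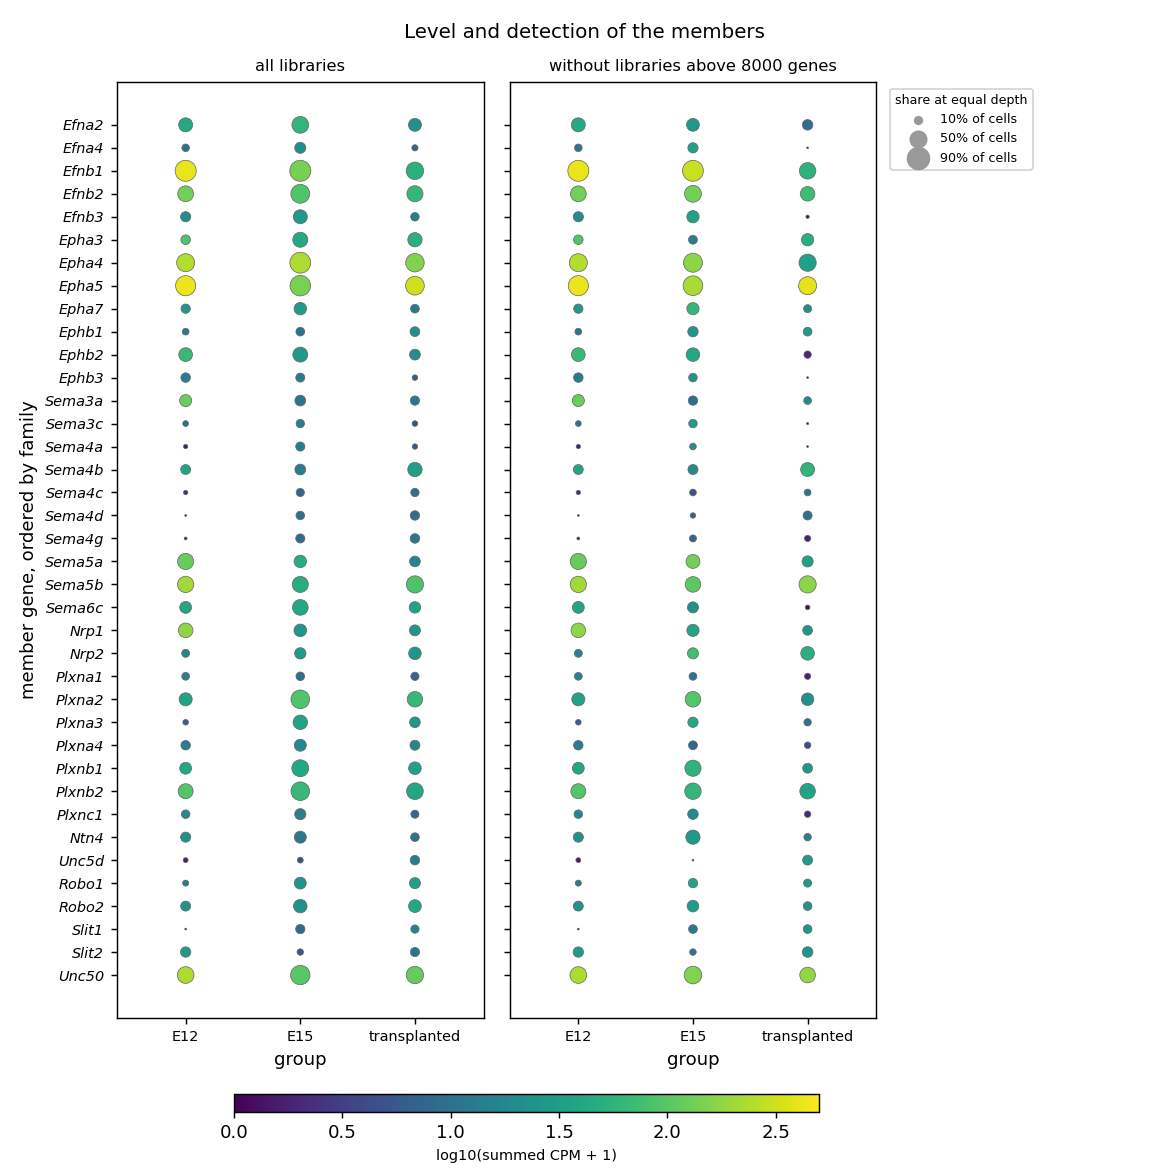
Summed level (colour, log10 of CPM + 1) and share of cells with a read at equal depth (dot area) of the 38 members in the 3 groups, with all libraries on the left and without those above 8000 genes on the right. Colours are to be read along a row, since levels are not divided by gene length. Efnb1 goes from 402.0 to 134.6 and 51.98 CPM in E12, E15 and transplanted cells, and Slit1 and Sema4d have no read in E12 cells.

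At a limit of 1 on the log2 scale, 7 of 37 members were higher and 11 were lower in E15 than in E12 cells, where 25.3% and 20.3% of all genes were. Without the many-gene libraries the counts were 12 higher and 4 lower of 36, against 24.2% and 21.6%. The balance between the directions thus turned with the libraries used. In transplanted over E15 cells 4 of 38 members were higher and 8 lower, against 4.71% and 11.8% of all genes. With these libraries left out 6 were higher and 18 lower of 38, against 18.7% and 28.0%. In transplanted over E12 cells 7 of 37 members were higher and 13 lower, against 22.9% and 24.7%, and without the many-gene libraries 7 and 16 of 36, against 22.5% and 29.8%. On the lower side the members' share was above the background in both comparisons of the transplanted cells, in either set of libraries. In the mean of ratios within pools (the letters A to H of the labels, not explained there) the balance turned for transplanted over E12 cells. There 15 of 37 members were higher and 4 lower, against 44.5% and 8.13% of all genes, so it turned for all genes too. On the higher side the members' share was above the background in transplanted over E15 cells with all libraries. Without the many-gene libraries it was below the background. The 3 comparisons share groups, so they are not separate observations of 1 pattern.

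The median log2 ratio of the members was -0.09 (E15 over E12), -0.19 (transplanted over E15) and -0.67 (transplanted over E12), where that of all genes was -0.03, -0.08 and -0.09. Without the many-gene libraries it was 0.13, -0.95 and -0.75, against -0.01, -0.13 and -0.16. Members below 0 numbered 24 of 38 in transplanted over E15 cells (26 without the many-gene libraries), where 55.6% of all genes lay below 0. They numbered 25 of 37 in transplanted over E12 cells (26 of 36), where 52.8% of all genes did. At equal depth a cell held reads of 9.47, 14.85 and 8.59 members (medians of E12, E15 and transplanted cells) among 3040, 5224 and 4215 genes. Without the many-gene libraries it held 9.47, 9.83 and 5.85 members among 3040, 2935 and 2915 genes. At about the same median number of genes, the median number of members was thus lowest in the transplanted cells. As a share of the genes found in the same cell the medians lay closer together. They were 0.2798%, 0.2987% and 0.2593% without the many-gene libraries, and 0.2798%, 0.2981% and 0.2661% with all libraries.

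**Figure D2:**
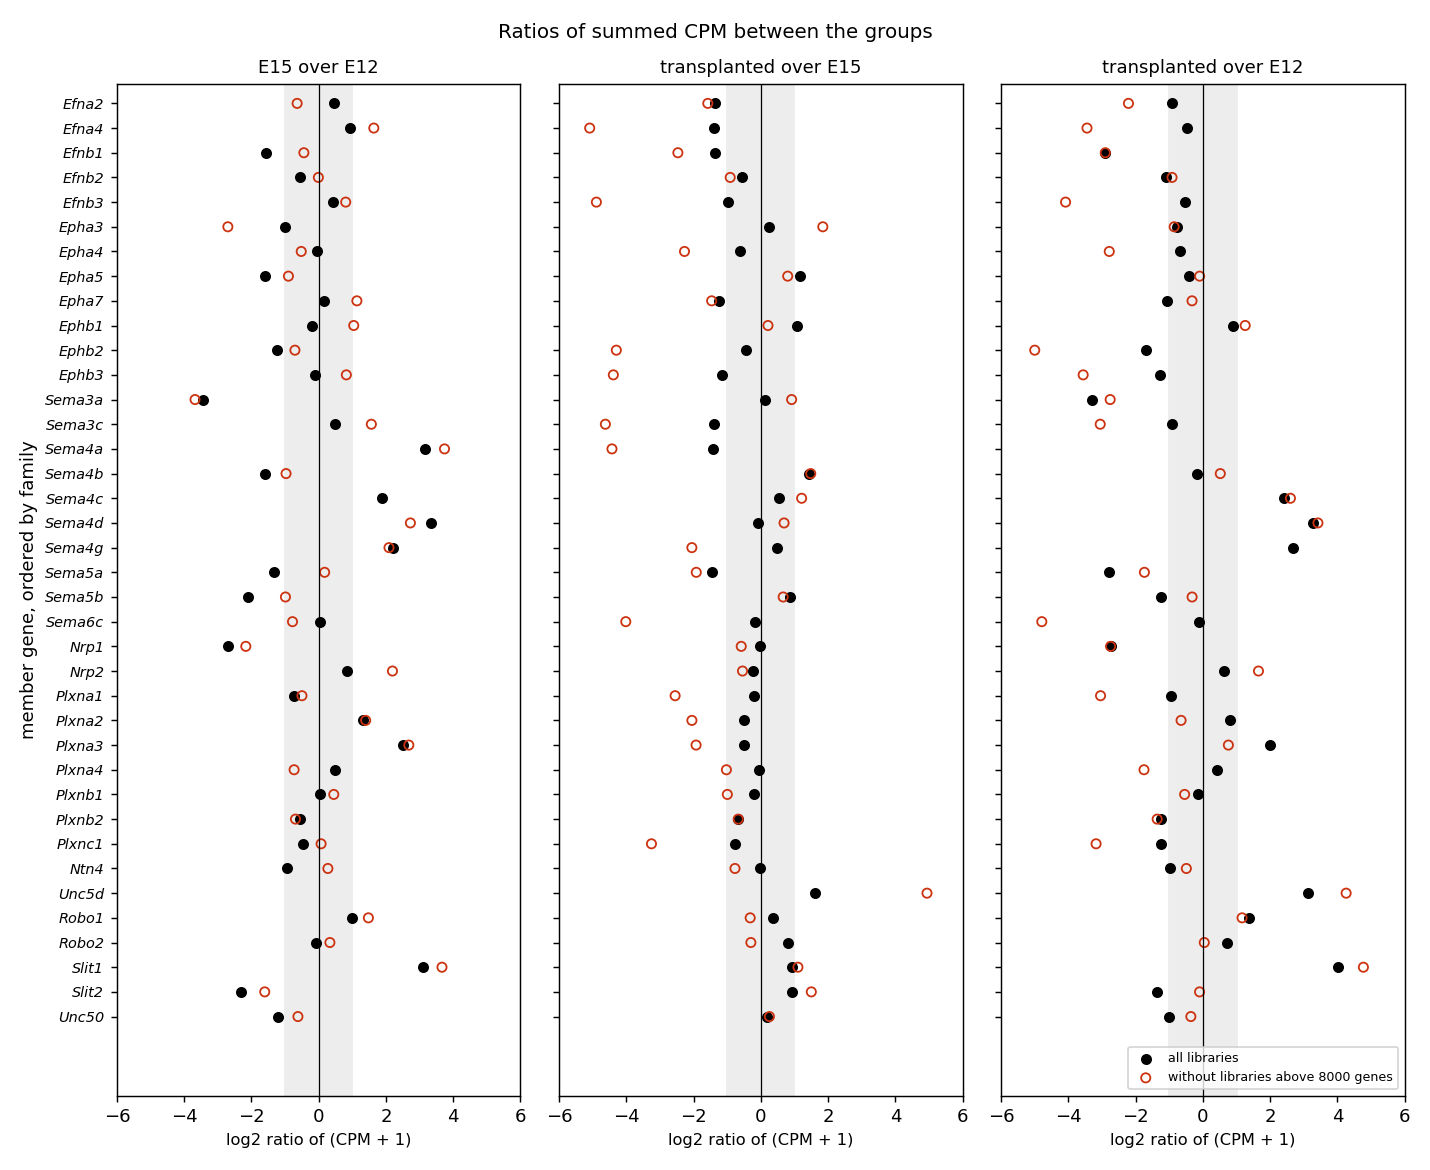
Log2 ratio of summed CPM (plus 1) for each member in the 3 comparisons. Black points use all libraries, open red circles leave out those above 8000 genes, and the grey band marks ratios under 1 in size. In the middle panel all 5 ephrins and all 7 plexins lie below 0 in both sets of libraries.

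The ephrins, the membrane-bound ligands, were lower in transplanted than in E15 cells for all 5 members. Their summed level was 606.6 CPM in E12, 328.8 CPM in E15 and 155.2 CPM in transplanted cells, and leaving out the many-gene libraries it was 606.6, 523.1 and 131.3 CPM. The median ratio of transplanted over E15 cells was -1.35, and -2.47 without those libraries. Of the 5, 3 passed the limit of 1, where 11.8% of all genes were lower, and 4 did without those libraries, where 28.0% were. All 5 ratios stayed below 0 in each of 20 other settings and after leaving out any 1 of the 45 cells. Of all genes, 55.6% lay below 0 in this comparison, and 54.3% without the many-gene libraries. No share of all genes that kept their side over these settings is given here. Against E12 cells all 5 were also lower, in 17 of 20 other settings and after leaving out 37 of 39 cells. In that comparison 3 of the 5 were below 0 in the mean of ratios within pools, and 4 were without pool A, without pool D, or without E12 replicate 4 or 19. These counts of signs were made after the values had been seen. In E15 over E12 cells 3 ephrins lay above and 2 below 0.

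Efnb1 encodes ephrin-B1, a transmembrane ligand made by cortical progenitors, and lies on chromosome X at 99136130 to 99148991 (GRCm38, plus strand). Single E12 cells ranged from 0 to 1246 CPM with a median of 190.8, E15 cells from 0 to 3364 with a median of 97.98, and transplanted cells from 0 to 401.5 with a median of 36.44. The high ends of the E12 and E15 groups thus lay above any transplanted cell, while the low ends coincided. A read was found in 18 of 20 E12, 25 of 26 E15 and 16 of 19 transplanted cells, and at equal depth in 84.0%, 84.3% and 58.0%. Summed levels were 402.0 (384.6 to 420.1), 134.6 (130.9 to 138.4) and 51.98 CPM (48.1 to 56.1). Leaving out the many-gene libraries, which held 34.6 to 130.8 CPM in single E15 cells, brought the E15 level to 296.2 CPM and the transplanted level to 52.8 CPM. The log2 ratio of transplanted over E15 cells was -1.36, -2.47 without the many-gene libraries, and -1.50 to -0.87 over left-out cells. Of the 45 left-out cells only E15 replicate 13 brought it under 1 in size, and so did leaving out pool E (-0.74). That replicate held 34.5% of the E15 reads of Efnb1. Of the pools, 5 of 7 with both groups had its direction. Against E12 cells the ratio was -2.93, -2.91 without the many-gene libraries and -3.11 to -2.56 over left-out cells, with 6 of 7 pools alike. For E15 over E12 cells it was -1.57 (-0.44 without the many-gene libraries) on summed and -0.09 on mean CPM per cell, and 0.54 on mean CPM without the many-gene libraries. That comparison thus has no stable direction.

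Efna2, a ligand tied to the membrane by a lipid anchor, lies on chromosome 10 at 80179482 to 80190010 (plus strand). Its median over cells was 0 CPM at E12 (highest 151.1), 40.7 CPM at E15 (highest 820.5) and 4.643 CPM in transplanted cells (highest 69.8). Its summed levels were 41.7, 57.1 and 21.7 CPM. Transplanted over E15 cells gave -1.35 (-1.58 without the many-gene libraries, -1.71 to -1.10 over left-out cells), and all 7 pools had this direction. Efnb2, which encodes the transmembrane ephrin-B2, had summed levels of 133.3, 90.6 and 61.5 CPM and reached 1724, 1090 and 361.2 CPM in single cells, with medians of 7.794, 68.2 and 31.2 CPM. Its ratio of transplanted over E15 cells was -0.55 (-0.91 without the many-gene libraries), under the limit. Against E12 cells it was -1.10 (-0.92), and -0.48 without E12 replicate 13.

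The other ephrins were found in fewer cells. Efnb3 (ephrin-B3) was at 19.6, 26.9 and 13.2 CPM and was found in 5 of 20, 17 of 26 and 5 of 19 cells, with highest cells at 187.6, 2162 and 50.5 CPM. E12 replicate 19 held 79.4% of its E12 reads, and the E12 level without that cell was 4.413 CPM. Efna4 was at 9.914, 19.7 and 6.842 CPM and was found in 3, 13 and 5 cells of the groups, and E12 replicate 4 held 71.4% of its E12 reads. Without the many-gene libraries 1 of 14 transplanted cells held a read of Efnb3 and 0 held one of Efna4, against 7 and 4 of 15 E15 cells. Most of the transplanted signal of both genes thus came from the many-gene libraries.

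**Figure D3:**
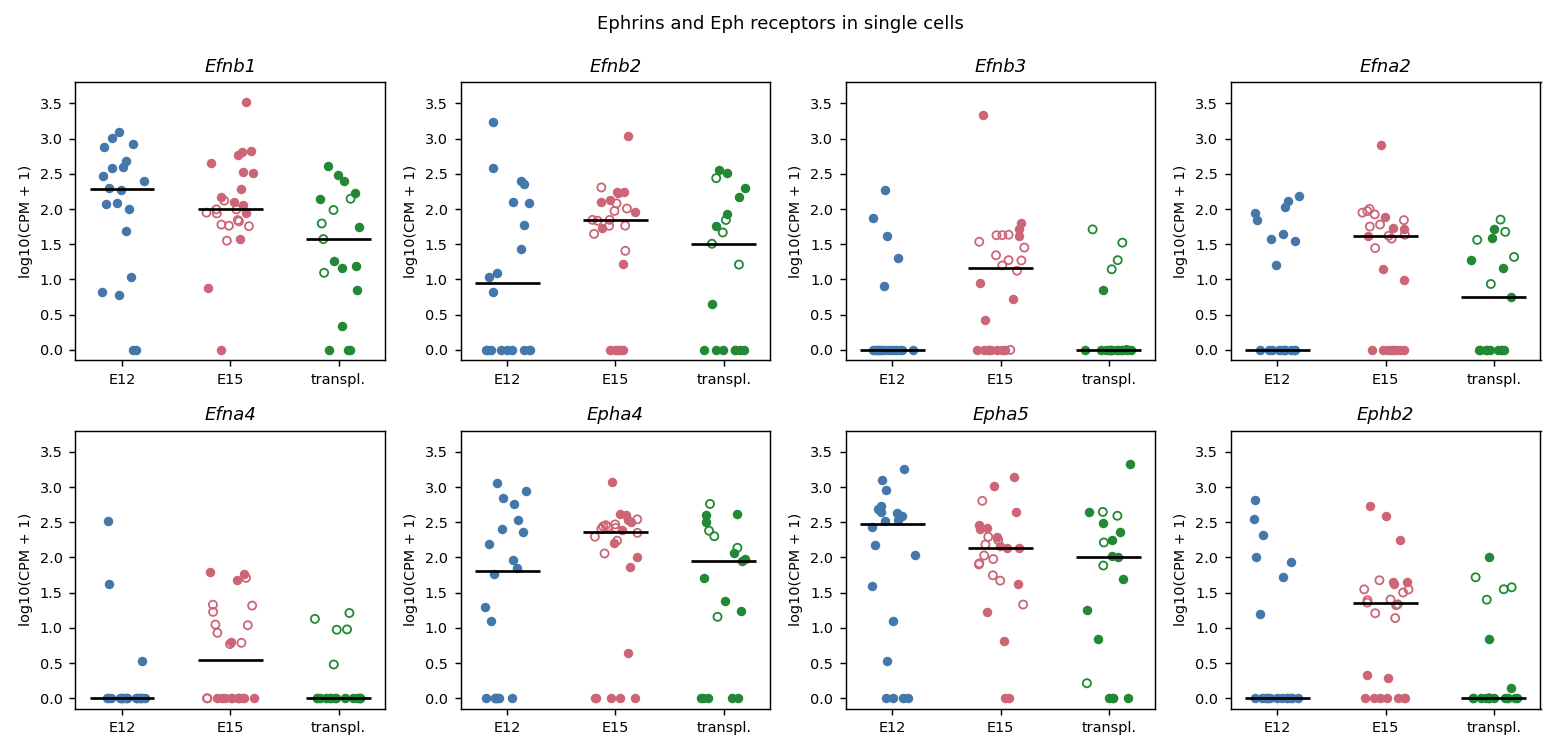
Level of the 5 ephrins and 3 Eph receptors in single cells (log10 of CPM + 1). Points are cells of the E12, E15 and transplanted groups, open circles are libraries above 8000 genes, and black bars are group medians. The Efnb1 medians are 190.8, 97.98 and 36.44 CPM, and cells without a read lie at 0 in every panel.

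Among the semaphorins, which include secreted and membrane-bound ligands, single members lay in opposite directions. Of 10, 4 were higher and 4 lower in E15 than in E12 cells (25.3% and 20.3% of all genes). In transplanted over E15 cells 1 was higher and 3 lower (4.71% and 11.8%). In transplanted over E12 cells 3 were higher and 3 lower of 9 (22.9% and 24.7%). Their summed level was 530.5, 204.5 and 221.2 CPM (530.5, 350.8 and 293.3 CPM once many-gene libraries were left out).

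Sema3a, a secreted repellent read through Nrp1, lies on chromosome 5 at 13125414 to 13602565. It had a median of 0 CPM in E12 cells (highest 1323), 3.046 CPM in E15 cells (highest 117.7) and 0 CPM in transplanted cells (highest 37.1). Its summed levels were 119.6, 10.2 and 11.3 CPM. E15 over E12 cells gave -3.43 and transplanted over E12 cells -3.30 (-3.68 and -2.76 without the many-gene libraries). E12 replicate 9 alone held 76.7% of the E12 reads, and without it the ratios over all libraries were -1.47 and -1.34. Without transplanted replicate 19 the second was -3.97. The E12 level of Sema3a thus rested largely on 1 of its 8 cells with a read.

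Sema5a and Sema5b are transmembrane semaphorins with thrombospondin repeats. Sema5a (chromosome 15, 32244810 to 32696341) had cell medians of 6.958, 2.958 and 0 CPM, highest cells at 492.6, 2016 and 178.9 CPM, and summed levels of 116.1, 45.8 and 16.04 CPM. Transplanted over E15 cells gave -1.46 (-1.92 without the many-gene libraries), and the value was -0.65 without E15 replicate 18, which held 44.5% of the E15 reads, and under 1 in size also without E15 replicate 13. It was -2.09 without transplanted replicate 19 and had the other sign, 0.54, without pool E. Transplanted over E12 cells gave -2.78 (-1.74 without the many-gene libraries, -3.42 to -2.43 over left-out cells, the lowest without transplanted replicate 19), in 5 of 7 pools. The lower level against E12 thus held over every left-out cell, and the lower level against E15 did not hold over every left-out pool. Sema5b, the semaphorin with most reads, had summed levels of 206.2, 47.1 and 86.7 CPM and cell medians of 5.549, 21.4 and 30.3 CPM. At equal depth 50.3%, 49.0% and 56.1% of cells had a read of it. Its summed ratio of E15 over E12 was -2.11, -0.99 and so under the limit without the many-gene libraries, and that of mean CPM 0.06. E12 replicate 5 held 55.1% of its E12 reads.

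Sema4b, a transmembrane class 4 semaphorin, was the only member named by the rule as higher in transplanted than in E15 cells. It lies on chromosome 7 at 80186841 to 80226527. Single cells had medians of 0, 2.473 and 0 CPM and highest values of 85.3, 222.4 and 565.8 CPM. Reads were found in 5 of 20, 15 of 26 and 9 of 19 cells, and at equal depth in 18.2%, 21.8% and 38.8%. Summed levels were 38.4, 11.98 and 34.1 CPM. The ratio of transplanted over E15 cells was 1.43 (1.49 without the many-gene libraries, 1.11 to 1.68 over left-out cells), and all 7 pools had this direction. Sema4d, a ligand of plexin-B1, had no read in 20 E12 cells, which allows a level of up to 0.607 CPM (3 reads over the group) and a share of up to 15% of cells. It was at 9.178 CPM in E15 and 8.572 CPM in transplanted cells, at least 15.1-fold and 14.1-fold higher. Sema4a, Sema4c and Sema4g were at 0.607, 1.012 and 0.809 CPM in E12 cells and between 4.404 and 13.3 CPM in the other groups. With the many-gene libraries left out, the E15 levels of Sema4a, Sema4c, Sema4d and Sema4g were 20.5, 4.263, 5.624 and 6.713 CPM. E15 replicate 18 held 99.6% of those reads of Sema4a and replicate 6 held 98.4% of those of Sema4d. The transplanted levels without these libraries were 0 (which allows up to 0.647 CPM), 11.2, 9.699 and 0.862 CPM. For Sema4a and Sema4g the higher summed transplanted level thus lay in the many-gene libraries, though 1 of the other 14 cells held Sema4g at 49.4 CPM. Transplanted replicate 18 held 96.2% of those reads of Sema4c, with 0.528 CPM left without it. Transplanted replicate 8 held 57.8% of those of Sema4d, with 4.13 CPM left. All 4 of these class 4 semaphorins were near or at 0 at E12, in the group with the fewest reads.

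The other ligands were sparse. Ntn4, a secreted netrin related to laminins, was at 21.7, 10.8 and 10.5 CPM, and E12 replicate 19 held 50.5% of its E12 reads. Slit1 had no read at E12, with the same limits as Sema4d, and was at 7.551 and 15.2 CPM in E15 and transplanted cells, at least 12.4-fold and 25-fold higher. Its levels without the many-gene libraries were 11.7 and 26.3 CPM. Transplanted replicate 19 held 55.4% of its transplanted reads, and without that cell the level was 8.488 CPM and the log2 ratio over E12 3.25 in place of 4.02. Slit2 was at 27.1, 4.696 and 9.909 CPM, and transplanted replicate 16 held 85.7% of its transplanted reads. Without that cell the ratio of Slit2 in transplanted over E15 cells was -1.23 in place of 0.94 (1.502 without the many-gene libraries). Sema3c was found in 2, 7 and 2 cells of the groups, and Sema6c was at 38.7, 40.1 and 35.5 CPM. Sema6c was at 0.431 CPM in transplanted cells without the many-gene libraries, and without E12 replicate 9, which held 69.1% of the E12 reads, it was at 12.8 CPM in E12 cells.

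**Figure D4:**
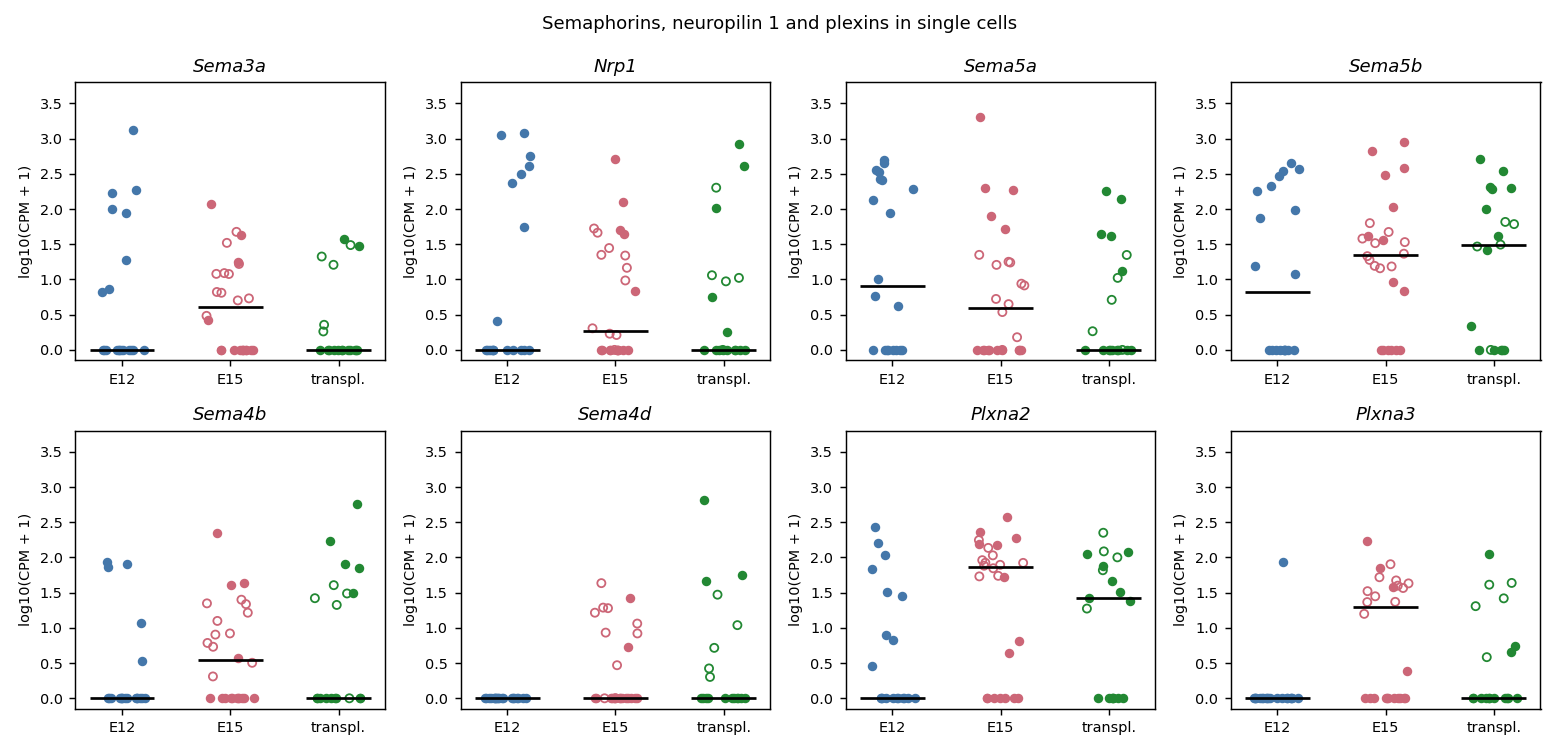
Level of 5 semaphorins, Nrp1, Plxna2 and Plxna3 in single cells (log10 of CPM + 1). Points are cells of the E12, E15 and transplanted groups, open circles are libraries above 8000 genes, and black bars are group medians. The highest Sema3a cell, at 1323 CPM, is E12 replicate 9, and Sema4d has no read in any E12 cell.

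Among the Eph receptors, 7 kinases that bind ephrins, 0 were higher and 3 lower in E15 than in E12 cells (25.3% and 20.3% of all genes). In transplanted over E15 cells 2 were higher and 2 lower (4.71% and 11.8%). In transplanted over E12 cells 0 were higher and 3 lower (22.9% and 24.7%). Epha4, which binds both classes of ephrin, had cell medians of 63.7, 232.6 and 86.9 CPM, highest cells at 1154, 1177 and 575.3 CPM, and summed levels of 243.8, 234.4 and 153.1 CPM. Without the many-gene libraries its level was 170.0 CPM in E15 and 34.5 CPM in transplanted cells, a ratio of -2.27 against -0.61 over all libraries. On mean CPM per cell these ratios were -0.99 and -0.69, so the size of the first depended on how cells were weighted. Epha5, a receptor of ephrin-A ligands, had cell medians of 302.6, 134.2 and 100.7 CPM and summed levels of 416.2, 138.4 and 310.6 CPM. Its ratio of transplanted over E15 cells was 1.16 on summed CPM, 0.80 without the many-gene libraries, under 1 in size also without transplanted replicate 15 or 19, and 0.08 on mean CPM. Reads of Epha5 were found in 16 of 20, 24 of 26 and 15 of 19 cells. Transplanted replicate 15 held 40.6% of the transplanted reads of Epha5, and the summed level without that cell was 258.1 CPM.

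Ephb2, a receptor of ephrin-B ligands on chromosome 4 at 136647539 to 136835988, had cell medians of 0, 21.2 and 0 CPM, highest cells at 661.5, 530.4 and 100.7 CPM, and summed levels of 65.6, 27.2 and 19.7 CPM. Transplanted over E12 cells gave -1.69 (-2.26 to -1.16 over left-out cells) in 5 of 7 pools, and -5.00 without the many-gene libraries, where 3 of 14 transplanted cells held a read. Epha7 (chromosome 4, 28813131 to 28967499) had cell medians of 0, 1.843 and 0 CPM, highest cells at 450.0, 256.0 and 34.1 CPM, and summed levels of 25.9, 29.1 and 11.7 CPM. Transplanted over E15 cells gave -1.24 (-1.46 without the many-gene libraries) in 5 of 7 pools. The value was -0.79 without E15 replicate 13 and -2.10 without transplanted replicate 19. Highest cells of both receptors thus lay in the E12 and E15 groups. Epha3 was at 87.4, 42.7 and 51.2 CPM in 3, 16 and 9 cells of the groups. Its E12 level was 41.9 CPM without E12 replicate 17, and the E15 over E12 ratio of -1.015 (-2.70 without the many-gene libraries) was then 0.03. Ephb1 was at 11.3, 9.765 and 21.7 CPM, and without E12 replicate 19, which held 98.2% of its E12 reads, it was at 0.221 CPM in E12 cells. Ephb3 was at 13.4, 12.2 and 4.954 CPM, and at 0.216 CPM in transplanted cells without the many-gene libraries. The E12 levels of Epha3 and Ephb1 thus rested largely on 1 cell each.

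Neuropilins are the ligand-binding receptors of class 3 semaphorins. Nrp1 (chromosome 8, 128358604 to 128503363) had cell medians of 0, 0.863 and 0 CPM, highest cells at 1192, 505.8 and 840.1 CPM, and summed levels of 173.6, 25.9 and 25.2 CPM. E15 over E12 cells gave -2.70 (-2.17 without the many-gene libraries) and transplanted over E12 cells -2.74 (-2.75). E12 replicate 19 held 57.0% of the E12 reads. Without it the ratios were -1.62 and -1.66, and without transplanted replicate 17 the second was -3.46. In each comparison 3 pools had the direction of the sums, of 8 and of 7, and the mean of the ratios within pools had the other sign (0.18 and 0.63). The higher Nrp1 level at E12 thus did not hold pool by pool. Nrp2 was at 15.6, 28.8 and 24.5 CPM. In each group 1 library held much of this: E12 replicate 18 held 76.6%, E15 replicate 9 held 44.3% and transplanted replicate 1 held 69.1% of the reads, and without these cells the levels were 3.780, 16.3 and 7.649 CPM.

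The plexins, signalling receptors of semaphorins, were lower in transplanted than in E15 cells for all 7 members, with a median ratio of -0.50 (-1.93 without the many-gene libraries, again all 7 below 0). On mean CPM per cell 5 of 7 were below 0. All 7 stayed below 0 in 12 of 20 other settings and after leaving out 35 of 45 cells, so the plexins kept their side less widely than the ephrins, a difference that was not tested. None of the 7 passed the limit of 1 over all libraries, where 11.8% of all genes were lower. Without the many-gene libraries 5 did, where 28.0% of all genes were lower. At equal depth a cell held reads of 1.201, 3.286 and 1.910 plexins (1.201, 1.931 and 0.983 without the many-gene libraries).

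Plxna2 and Plxna3 are co-receptors of neuropilins and receptors of class 6 semaphorins. Plxna2 (chromosome 1, 194618218 to 194816869) had cell medians of 0, 72.3 and 25.2 CPM, highest cells at 266.1, 369.8 and 223.4 CPM, and summed levels of 35.4, 89.6 and 63.0 CPM. E15 over E12 cells gave 1.32 (1.40 without the many-gene libraries) in 7 of 8 pools. The value was 0.77 without E12 replicate 5 and 2.27 without E12 replicate 17, which held 56.0% of the E12 reads. Plxna3 (chromosome X, 74329066 to 74344689) had cell medians of 0, 18.5 and 0 CPM, highest cells at 86.4, 173.1 and 111.7 CPM, and summed levels of 5.463, 35.5 and 24.6 CPM. E12 replicate 2 held all its E12 reads. E15 over E12 cells gave 2.50 (2.68 without the many-gene libraries) in 7 of 8 pools, and 5.19 without E12 replicate 2. Transplanted over E12 cells gave 1.99, 0.76 with the many-gene libraries left out, 4.68 without E12 replicate 2, and a difference of -0.00051 log2 units on the deposited values. Plxnb2, a receptor of class 4 semaphorins, had summed levels of 95.1, 64.1 and 39.4 CPM with cell medians of 2.921, 51.1 and 32.3 CPM. Its E15 over E12 ratio was -0.56 (-0.69 without the many-gene libraries) and 0.19 without E12 replicate 5, which held 60.6% of the E12 reads. Plxnb1 was at 39.5, 40.9 and 35.2 CPM, and Plxna1, Plxna4 and Plxnc1 were between 6.999 and 17.9 CPM in every group. E12 replicate 19 held 94.4% of the E12 reads of Plxna1, E12 replicate 20 held 67.7% of those of Plxna4 and E12 replicate 5 held 75% of those of Plxnc1.

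The remaining receptors were found in few E12 cells. Robo2 was at 23.7, 22.2 and 39.6 CPM in 5, 16 and 7 cells of the groups (30.1 and 24.4 CPM in E15 and transplanted cells without the many-gene libraries), and E12 replicate 18 held 62.4% of its E12 reads. Robo1 was at 12.3, 25.5 and 33.4 CPM in 2, 15 and 6 cells (36.2 and 28.9 CPM without the many-gene libraries). E12 replicate 13 held 98.4% of its E12 reads, and without it the level was 0.208 CPM and the E15 over E12 ratio 4.46 in place of 0.99 (1.48 without the many-gene libraries). Unc5d, a repellent netrin receptor that also binds Flrt proteins, was at 0.607, 3.602 and 12.98 CPM, and transplanted replicate 19 held 75.8% of its transplanted reads. Unc5d had no read in the 15 E15 libraries with 8000 genes or fewer, which allows up to 0.272 CPM. It was at 29.7 CPM in transplanted cells outside the many-gene libraries. Unc50, the member by name alone, was at 230.7, 98.8 and 112.9 CPM with medians of 22.4, 63.8 and 44.7 CPM in single cells. Its ratio of transplanted over E12 cells was -1.02 (-0.36 without the many-gene libraries), from -1.82 to -0.44 over left-out cells, the latter without E12 replicate 5, which held 55.5% of the E12 reads.

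Ligand and receptor reads could be looked for in the same cell, a count made after the levels had been seen. Reads of an ephrin-B gene together with Epha4 or an Ephb gene were found in 14 of 20 E12, 25 of 26 E15 and 13 of 19 transplanted cells. At equal depth the shares were 73.8%, 93.3% and 61.2%, and 73.8%, 89.1% and 52.3% without the many-gene libraries. The single limits of the unthinned shares, 45.7% to 88.1%, 80.4% to 99.9% and 43.5% to 87.4%, overlapped between all groups. Reads of a class 4 semaphorin with Plxnb1 or Plxnb2 were found at equal depth in 20.98%, 47.95% and 52.4% of cells. Without the many-gene libraries these shares were 20.98%, 31.2% and 43.75%. An ephrin-A gene with an Epha gene was found at equal depth in 39.5%, 57.8% and 33.0% of cells. For a class 3 semaphorin with a neuropilin the shares were 18.55%, 12.8% and 10.8%. Reads of a Slit and a Robo gene were found together in 0 of 20 E12 cells, which allows up to 15% on the limit of 3 cells, in 12 of 26 E15 cells and in 5 of 19 transplanted cells, and at equal depth in 0%, 9.382% and 11.2%. Without the many-gene libraries the Slit and Robo shares were 0%, 2.972% and 11.8%. Co-detection of the ephrin-B system was thus common in all groups, and that of Slit and Robo was rare once depth was made equal. At equal depth an ephrin-B gene alone was found in 92.9%, 95.7% and 75.95% of cells, and its receptors in 77.9%, 94.2% and 68.65%. Pairing beyond these single shares was not tested.

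Other genes of guidance signalling (co-receptors, collapsin response mediators, regulators of actin, proteases) were counted as a list of 63, of which 55 were in the tables. In E15 over E12 cells 23 of 55 were higher and 6 lower, against 25.3% and 20.3% of all genes, and without the many-gene libraries 16 and 7 of 53, against 24.2% and 21.6%. In transplanted over E15 cells 2 were higher and 8 lower of 53, against 4.71% and 11.8%, and 11 and 12 of 53 without the many-gene libraries, against 18.7% and 28.0%. In transplanted over E12 cells 20 were higher and 9 lower of 54, against 22.9% and 24.7%, and 17 and 11 of 51 without those libraries, against 22.5% and 29.8%. The median ratio of this list was 0.86, -0.02 and 0.47 in the 3 comparisons, while that of the members was -0.09, -0.19 and -0.67.

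Several cytoplasmic mediators were higher at E15. Limk2, a kinase of the actin-severing cofilins, was at 4.047 CPM in E12, 44.9 CPM in E15 and 54.3 CPM in transplanted cells, with ratios over E12 of 3.19 and 3.46 (2.68 and 4.03 without the many-gene libraries), and of 4.97 and 5.24 without E12 replicate 17. Srgap1, which binds Robo receptors, had no read at E12 and was at 34.3 and 24.8 CPM in the other groups, at least 56.5-fold and 40.8-fold higher. Its summed ratio of transplanted over E15 cells was -4.27 without the many-gene libraries, in place of -0.45. There its summed level was under 5 CPM in both E12 and transplanted cells. On mean CPM per cell without those libraries, the transplanted ratio was -0.52 over E15 and 4.29 over E12. Where the higher transplanted level lay thus depended on how cells were weighted. Vav2, an exchange factor used by Eph receptors, was at 4.451, 34.9 and 37.8 CPM, with ratios over E12 of 2.72 and 2.83 (1.96 and 3.57), and of 4.89 and 5.003 without E12 replicate 20. Draxin, a secreted guidance protein that binds Dcc, was at 6.879, 25.5 and 32.4 CPM, and the E15 over E12 ratio of 1.75 (3.11) was 0.96 without E15 replicate 18 and 2.82 without E12 replicate 20. Dpysl3 and Crmp1, collapsin response mediators of young neurons, were at 277.0, 1298 and 1689 CPM and at 259.0, 833.9 and 1008 CPM. Their E15 over E12 ratios of 2.22 and 1.68 were 0.77 and 0.59 without the many-gene libraries, the libraries with the higher neuronal marker sum. Enah, an actin regulator, was lower at E15, at 361.0 against 104.9 CPM (-1.77, and -2.57 without the many-gene libraries), and in the mean of ratios within pools it had the other sign (0.80).

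Of this list, 5 genes were lower in transplanted than in E15 cells by the same rule that named the members. Flrt2, a ligand of Unc5 receptors, was at 0.202, 45.9 and 13.4 CPM in E12, E15 and transplanted cells, with a ratio of transplanted over E15 of -1.71 (-3.58 without the many-gene libraries) in 4 of 7 pools. Without transplanted replicate 4 or 6 that ratio was -2.42 or -2.41. Adam17, a protease that cuts membrane proteins, gave -1.68 (-3.35) in all 7 pools. Kalrn gave -1.39 (-3.50) in 5 of 7 pools. Neo1, a receptor of netrins and RGM proteins, gave -1.002 (-3.57), close to the limit, and -1.19 to -0.67 over left-out cells. It fell under the limit without any 1 of many cells of both groups. Kalrn did so only without E15 replicate 13.

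The same rule named further genes of this list against E12 cells, each given with its ratio and, in parentheses, that without the many-gene libraries. Sdcbp, an adaptor that binds the tails of ephrin-B proteins, was higher in E15 (1.99, 2.16) and in transplanted cells (1.54, 1.63), the latter under the limit without E12 replicate 5. Chn2, a chimaerin, was higher in E15 cells (1.91, 2.21), and 3.36 without E12 replicate 6. Farp1, an exchange factor that binds plexins, and Flrt3, a membrane protein that binds Unc5 receptors, were higher in transplanted cells, at 2.39 (2.79) and 2.07 (2.38). These were 3.97 without E12 replicate 16 and 2.89 without E12 replicate 2. Nck2, an adaptor of receptor kinases, gave 1.28 (1.55) and Rac1, a GTPase that acts on actin, 1.019 (1.56) in transplanted cells, both under the limit without E12 replicate 5. Rac1 was under it without other cells as well.

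Lower genes were fewer among these. Adam10, a protease that cuts ephrins, gave -1.47 (-2.24) in transplanted over E12 cells, and -0.70 without E12 replicate 9. Kalrn gave -2.00 (-3.30) in that comparison, in 3 of 7 pools. Srgap3 gave -1.12 (-1.12) in E15 and -1.20 (-0.88) in transplanted cells, and both were under the limit without E12 replicate 1, 10 or 13.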

How the data were processed

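The 65 Patch-seq libraries came from a SMART-Seq kit for 3' ends followed by Nextera XT, per the labels' protocols. STAR was the aligner, HTSeq the counter and mm10 the genome build, per the submitters' processing notes, with versions not given in the sources used here. The values as deposited by the authors are on a log10 scale: from the values themselves, log10 of 1 plus scaled counts, centred per gene, with 2 further directions over cells removed. The design had allowed for counts. Whole counts were recovered from the log10 values for all 10407 genes, 10027 from the plane of cells at 0 and 380 by a search. Of 356667 non-zero values 0 were further than 0.01 from a whole number. Genes with reads in fewer than 6 cells were not analysed here. The recovery was tested on simulated counts modelled on genes solved from the plane of cells at 0, not on those solved by search. The ratios were tested on simulated counts with a milder spread than single cells show. A run as uneven as single cells was recorded without a pass limit, so neither test covers all of these data.

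Counts were summed over the cells of a group and divided by the group's total over the genes in the tables to give CPM. Log2 ratios used a pseudocount of 1 CPM and genes at 5 CPM or more in either group. A group at 0 was set to 3 counts for a lower bound. The equal depth of 28614 reads is the 10th percentile of the totals. A member was named with full values where the higher group reached 20 CPM and 30% of cells and the ratio was at least 1 in size, in 1 direction, on summed and on mean CPM. The 2 members of each family with most reads were named as well. The members, lists and alternatives were chosen with earlier results of these data known. Pools A to H come from the labels. No test was made, since no animal is named and p-values from cells would count cells as replicates. Positions are GRCm38 in GENCODE vM21, and promoters are from RefSeq (GRCm38.p6). The orientation of the 33 windows was checked against transcripts. Of these, 27 matched a transcript of their gene in sense and 0 in antisense, and the others matched neither. No protein sequence is shown. The values of 1 gene that met the naming rule in the list of other guidance genes are not reported here.

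Alternatives were mean CPM per cell, median-of-ratios factors, removal of ribosomal and mitochondrial genes from the totals, a filter of 1 or of 20 CPM, pseudocounts of 0.1 and 5 CPM, leaving out each cell, each pool, the 7 shallowest libraries or those above 8000 genes, the mean of ratios within pools, and the deposited values. Mean CPM without libraries above 8000 genes was chosen after seeing the data. Python 3.11.15, NumPy 2.4.6, pandas 2.3.3, SciPy 1.17.1, Numba 0.67.0 and Matplotlib 3.10.9 were used.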

Additional observations from a re-analysis of the deposited data

How the results depend on the processing

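The signs of the ephrins, which are not counts past a limit, held in every setting only for transplanted over E15 cells. The counts of members past the limit depended on the processing. For E15 over E12 cells (7 higher, 11 lower) they were 10 and 3 on mean CPM per cell (23.5% and 18.6% of all genes), 12 and 4 without libraries above 8000 genes, 12 and 6 on mean CPM without them, 24 and 2 in the mean of ratios within pools (59.6% and 3.28% of all genes), and 0 and 0 on the deposited values (2.87% and 1.06%). A filter of 20 CPM left 2 higher (18.3% of all genes), and leaving out pool A gave 13 higher (27.4%). For transplanted over E15 cells (4 higher, 8 lower) the lower members numbered 14 on mean CPM and 17 within pools (32.2% of all genes). They numbered 18 without libraries above 8000 genes (28.0%) and 20 on mean CPM without those libraries. With a filter of 20 CPM there were 4, and with a pseudocount of 5 CPM there were 5. There were 5 without pool A, 5 without pool E and 1 on the deposited values. The higher members numbered 1 within pools, 0 on the deposited values, 1 without pool A, 2 without pool B and 7 without pool D. For transplanted over E12 cells (7 higher, 13 lower) the higher members numbered 2 with a filter of 20 CPM, 15 within pools, 14 without pool A and 0 on the deposited values, and the lower ones 4 within pools and 0 on the deposited values. The cause of these shifts was not tested, except that a stricter filter leaves fewer members. Counts given here without the share of all genes are not read as results about the members.

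Over left-out cells the counts ranged from 6 to 12 higher and 9 to 12 lower for E15 over E12, from 2 to 7 and 5 to 10 for transplanted over E15, and from 6 to 10 and 10 to 17 for transplanted over E12. The counts that moved by over 1.5 times were 12 higher for E15 over E12 without E12 replicate 19, and, for transplanted over E15, 7 higher without E15 replicate 2 or transplanted replicate 14, 2 higher without transplanted replicate 19, and 5 lower without E15 replicate 13. Of the 16 ratios of named members 12 kept their sign in all settings run. The exceptions were Nrp1 within pools (0.18 for E15 over E12, 0.63 for transplanted over E12), Sema5a in transplanted over E15 without pool E (0.54) and Plxna3 in transplanted over E12 on the deposited values (-0.00051).

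No paired analysis was possible because the labels give no replicate numbers or animals that pair single cells across groups, and the pools entered only as the ratios within pools above. With 10928 reads in the shallowest library and most members found in under 3 of 4 cells at equal depth, a member without a read in a cell is described here only as not detected at that depth. Summed levels weight deep libraries: 1 library held 55.7% of the reads of the transplanted cells left after those above 8000 genes were taken out.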

Other observations

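The 16 libraries above 8000 genes held 62.6% of all reads, and the members were spread unevenly over them. Their median share of reads in these libraries was 53.1%, against 59.7% over all genes, and 10 of 38 members lay above 62.6%, against 41.7% of all genes. Among ligands the share was 12.6% for Sema5a, 21.6% for Slit2, 24.7% for Sema5b and 28.6% for Efnb1, so reads of these genes lay mostly in the other 49 cells. At the other end it was 83.7% for the receptor gene Plxna4, 80.2% for Sema4g, 79.6% for Sema6c and 79.6% for Efna2. Among the receptors with most reads, Epha4 was at 72.9%, Plxna2 at 69.4%, Epha5 at 43.6% and Nrp1 at 35.2%. The ephrins alone ran from 28.6% (Efnb1) to 79.6% (Efna2).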
